A study of Homo sapiens with 11 samples.

Results

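The genes described here build, load and switch on the class I molecules of the major histocompatibility complex (MHC). There are 9 of them among the 25590 genes listed for the tumours, taken by name: the heavy chains HLA-B, HLA-C, HLA-E and HLA-F, the light chain B2M, the peptide transporter subunits TAP1 and TAP2, the loading factor TAPBP, and the transactivator NLRC5. All 9 had enough reads to be tested, as did 16630 genes in all. The tumours were subcutaneous xenografts of PC-3, a human prostate carcinoma cell line that grows without androgen, in male athymic nude mice (Crl:NU-Foxn1nu) that were 8 weeks old. From day 7 after the cells were injected, the mice of 6 tumours received intraperitoneal A2M*, the activated form of alpha-2-macroglobulin and a ligand of the receptor LRP1, at 5.6 mg per dose, and those of 5 tumours received PBS, the buffer. Every tumour gave 1 RNA-seq library, so n is 5 PBS and 6 A2M* tumours throughout, and reads assigned to mouse had been removed before counting. Nude mice lack a thymus and therefore mature T cells, which limits these tumours as a model of antigen presentation, and all of them came from a single cell line.

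A class I molecule is a heavy chain held by the light chain beta-2-microglobulin with a short peptide in its groove. The proteasome cuts the peptides in the cytosol, the TAP1 and TAP2 transporter pumps them into the endoplasmic reticulum, and tapasin, the product of TAPBP, helps to load them onto the heavy chain. NLRC5 is drawn to the promoters of class I genes by a complex of RFX, CREB or ATF and NF-Y proteins, and interferon signalling, with IRF1 among its factors, is known to raise most genes of the pathway. T cells read HLA-B and HLA-C, and HLA-C and HLA-E are among the heavy chains that natural killer cells read. HLA-F is a less polymorphic heavy chain.

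Stretches of the HLA-B, HLA-C and B2M promoters are printed to show the control letters that these factors are known to bind. They come from the RefSeq promoter table (GRCh38.p14) and are written 5′ to 3′ on the strand of the gene. HLA-B lies on the minus strand at chr6:31357225-31357374, HLA-C on the minus strand at chr6:31272138-31272287, and B2M on the plus strand at chr15:44711422-44711481. Capitals mark GGGGATTC, the kB letters of enhancer A, and TTTCNNTTC, the form of the interferon-stimulated response element that HLA-B and HLA-C carry. They also mark TGACG, the core site for CREB and ATF, and CCAAT, the box bound by NF-Y, which reads ATTGG on the other strand.
HLA-B: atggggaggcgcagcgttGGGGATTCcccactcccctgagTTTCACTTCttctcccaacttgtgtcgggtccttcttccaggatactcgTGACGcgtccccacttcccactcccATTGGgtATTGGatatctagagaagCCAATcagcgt
HLA-C: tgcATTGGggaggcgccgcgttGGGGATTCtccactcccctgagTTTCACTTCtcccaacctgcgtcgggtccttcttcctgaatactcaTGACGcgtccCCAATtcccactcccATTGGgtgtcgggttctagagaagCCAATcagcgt
B2M: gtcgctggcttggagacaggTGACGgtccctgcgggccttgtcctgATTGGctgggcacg

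All 4 motifs were searched on both strands of 35116 promoters of 300 bases, without overlap between different motifs in the printed stretches. GGGGATTC was present in 0.888% of them, TTTCNNTTC in 7.66%, TGACG in 24.6% and CCAAT in 34.6%. HLA-B and HLA-C were among the 19 promoters (0.0541%) with both GGGGATTC and TTTCNNTTC. Both motifs are written with the letters that these genes carry, so that match was given by the choice of motif and is not a result. In HLA-B, HLA-C and B2M the letters TGACG were followed after 20 to 21 bases by ATTGG, an arrangement found in 53 promoters (0.151%). That spacing was chosen after the sequences were seen. The TAP2 promoter held TTTCNNTTC and TGACG, that of HLA-F held CCAAT only, 1 of the 2 TAP1 promoters held CCAAT, and the TAPBP promoter held none of the 4. A match is only a match of letters, and its absence says nothing of a factor's binding.

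On the GRCh37 annotation 7 of the members lie in the MHC on chromosome 6. HLA-F is at chr6:29690552-29706305 and HLA-E at chr6:30457286-30461971, both on the plus strand. HLA-C is at chr6:31236526-31239907 and HLA-B at chr6:31321649-31334844, both on the minus strand. The peptide-loading genes follow on the minus strand, with TAP2 at chr6:32789610-32806516, TAP1 at chr6:32812986-32821593 and TAPBP at chr6:33267471-33282061. B2M lies outside the MHC at chr15:45003556-45011049 and NLRC5 at chr16:57023397-57117443, both on the plus strand. All 9 are protein-coding, and reads were counted over their exons.

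B2M had the highest level of the 9 on both length scales used here, and the heavy chains HLA-B, HLA-C and HLA-E followed. NLRC5 had the lowest level only per kilobase of 1 reference transcript. The deposited RPKM values (reads per kilobase of exon per 1000000 reads) had a median over the 11 tumours of 1344 for B2M, 76.9 for HLA-B, 54.9 for HLA-C, 17.7 for HLA-E, 12.2 for TAPBP, 3.85 for NLRC5, 3.41 for HLA-F, 3.15 for TAP1 and 2.60 for TAP2. On that scale NLRC5 ranked 6 of 9, above both transporter subunits. The exon length that the deposited RPKM implies was far longer than a transcript for every member in the MHC. It was 9432 bases for HLA-B against 1536 in its reference transcript (6.14 times), 25160 against 2685 for TAP1 (9.37 times) and 49213 against 5643 for TAP2 (8.72 times). For the other MHC members the ratio was between 5.92 (TAPBP) and 7.70 (HLA-F). B2M (1.05) and NLRC5 (0.99), which lie elsewhere, had ratios near 1.

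The long lengths were a property of the MHC region and not of these genes alone. Among protein-coding genes with at least 10 counts in every tumour, 98 of 99 (99.0%) between the start of HLA-F and the end of TAPBP on chromosome 6 had an implied length of at least 3 times the reference transcript, with a median ratio of 7.23. Elsewhere 52 of 12677 genes (0.410%) did, with a median of 1.01. The part of extra copies of this region in the annotation was not tested. A deposited RPKM of an MHC gene is therefore not comparable with that of a gene elsewhere.

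Per kilobase of 1 reference transcript (reads per kilobase per 1000000 reads), the medians were 1407 for B2M, 472 for HLA-B, 394 for HLA-C, 129.2 for HLA-E, 72.1 for TAPBP, 29.5 for TAP1, 26.3 for HLA-F, 22.7 for TAP2 and 3.82 for NLRC5. NLRC5 moved from rank 6 to rank 9. This scale takes each read of an MHC gene as counted once, and that was not tested. B2M exceeded HLA-B by 2.98 times on this scale and by 17.5 times in deposited RPKM. In this order HLA-B was above HLA-C in 11 of 11 tumours although their ranges overlapped. TAP1 was above HLA-F in 9 of 11 and HLA-F above TAP2 in 8 of 11, with overlapping ranges, so these 3 levels could not be separated beyond their spread. The other 5 neighbouring pairs had ranges that did not overlap.

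**Figure D1:**
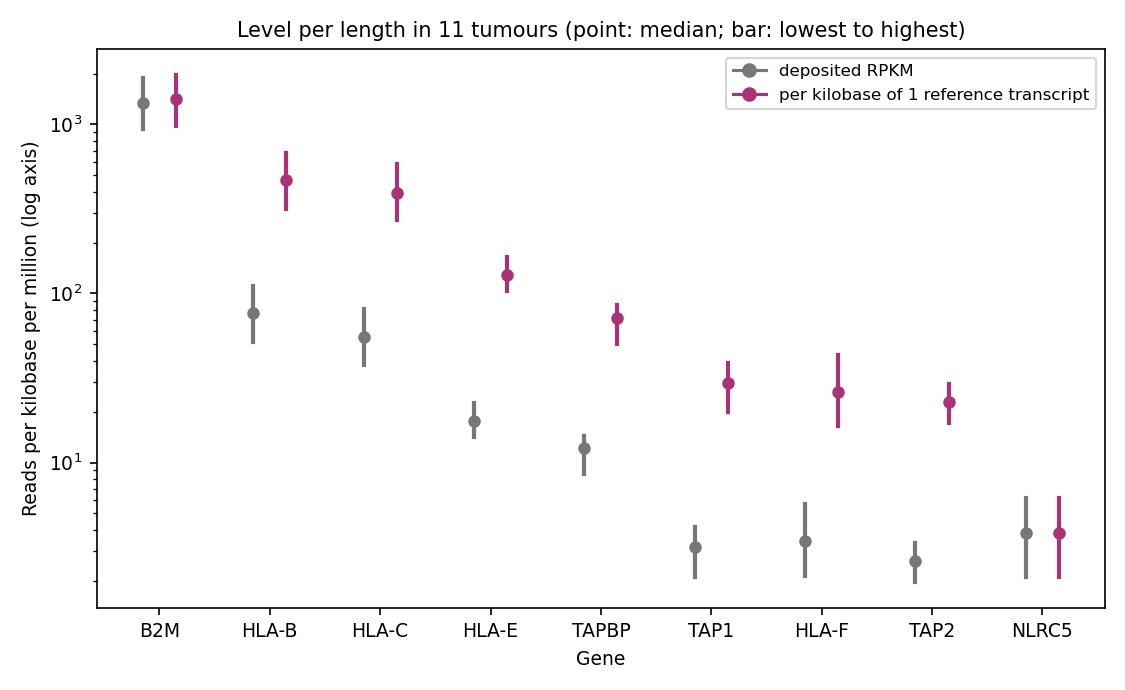
Level per length of the 9 genes in 11 tumours on a log axis, as reads per kilobase per 1000000 reads, with the median as a point and the lowest to highest tumour as a bar. The deposited RPKM (grey) and the level per kilobase of 1 reference transcript (purple) nearly coincide for B2M and NLRC5 and differ by 5.92 to 9.37 times for the 7 genes in the MHC.

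How far reads can be told apart between members bears on these levels. Of the windows of 50 bases along each reference transcript, the share also found in a transcript of another gene was 2.56% for HLA-B, 6.76% for HLA-C, 6.16% for HLA-E and 1.89% for HLA-F. TAPBP shared 7.09%, and B2M and NLRC5 shared none. TAP2 shared 35.3%, all of it with an annotated protein-coding gene that overlaps it on the same strand, and TAP1 shared 1.18%. How reads that match several genes were counted is not given in the sources used here. The levels of the 7 MHC members are therefore uncertain, and these shares do not bound by how much. Any extra annotated copies of the same genes were left out of the window search. HLA-B shares 1421 exon bases with the pseudogene DHFRP2 on the same strand, which no strand setting separates. HLA-B (11 bases), HLA-F, TAP1 and TAPBP also overlap exons of RNA genes on the other strand, and the strand setting of the counting is not given either.

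The total counts ran from 16958533 to 35874381 per tumour, which put 3 counts at 0.0836 to 0.177 reads per 1000000, and no member had fewer than 292 reads in any tumour. Epithelial markers (KRT8, KRT18, EPCAM and CDH1) summed to 1622 to 1943 CPM in PBS and 1341 to 1896 CPM in A2M* tumours, where CPM is counts per 1000000 after scaling by trimmed mean of M values. KLK3, an androgen receptor target, had no read in any tumour. The 6 leukocyte markers summed to 26.3 to 36.4 CPM in PBS and 26.2 to 35.4 CPM in A2M* tumours, most of it CD68, and the T cell marker CD3E had at most 4 counts. The 3 endothelial markers summed to 15.8 to 23.4 and 14.6 to 22.1 CPM, and the 5 fibroblast markers to 315 to 691 and 317 to 921 CPM, most of it COL1A1, while DCN and LUM had at most 3 and 5 counts. The cells of the host are mouse cells, and reads assigned to mouse had been removed. These human marker counts therefore do not measure host leukocytes, vessels or fibroblasts. In bulk tumours, fewer cells that express a gene and less RNA per cell cannot be told apart.

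The question of the design was what A2M* changed in the tumours. No class I gene differed between A2M* and PBS tumours beyond the spread between tumours. At an adjusted p under 0.01 in edgeR's quasi-likelihood test with Benjamini-Hochberg adjustment over all genes tested, 0 of the 9 passed, against 0% of all genes. None of the 9 had an unadjusted p under 0.05, against 7.08% of all genes (1178), and DESeq2 called 0 of the 9 as well. The fitted difference was above 0 for 5 members and below 0 for 4, beside 50.6% of all genes below 0, with a median log2 fold change of 0.03 beside -0.0021 for all genes.

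Among the heavy chains the PBS and A2M* tumours covered the same range. HLA-B stood at 762, 648, 508, 490 and 1059 CPM in the PBS tumours T123 to T127. In the 6 A2M* tumours its lowest, median and highest levels were 481, 729 and 987 CPM. The highest PBS tumour, T127, lay above every A2M* tumour, and the groups overlapped. The log2 fold change was 0.03 (SE 0.21, 95% interval -0.43 to 0.48, adjusted p = 0.989 in edgeR). HLA-C gave 690, 610, 500, 416 and 913 CPM in PBS and 439, 605 and 834 CPM as lowest, median and highest in A2M* tumours. T127 was again the highest of all and T126 the lowest, and the log2 fold change was -0.04 (SE 0.19, 95% interval -0.45 to 0.37, adjusted p = 0.978 in edgeR). HLA-E, the ligand of the NKG2A receptor of natural killer cells, varied least of the heavy chains. Its PBS levels were 359, 375, 296, 293 and 428 CPM, and its A2M* levels ran from 257 over a median of 327 to 403 CPM. The lowest tumour was an A2M* tumour and the highest a PBS tumour, with a log2 fold change of -0.07 (SE 0.12, 95% interval -0.33 to 0.19). HLA-F was lower in counts and wider in spread, with 42.7, 34.9, 27.9, 24.2 and 65.7 CPM in PBS and 25.6, 39.0 and 56.2 CPM as lowest, median and highest in A2M* tumours. Its log2 fold change was -0.03 (SE 0.24, 95% interval -0.55 to 0.49).

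The light chain B2M gave 1422, 1297, 961, 1124 and 1895 CPM in PBS tumours. The A2M* tumours ran from 1116 over a median of 1367 to 1696 CPM, inside the PBS range. The log2 fold change of B2M was 0.06 (SE 0.16, 95% interval -0.28 to 0.40, adjusted p = 0.966 in edgeR). NLRC5 gave 35.5, 25.8, 14.8, 17.9 and 42.6 CPM in PBS and 16.5, 28.3 and 36.2 CPM as lowest, median and highest in A2M* tumours. T125, a PBS tumour, was the lowest and T127 the highest. NLRC5 had the widest interval of the 9, from -0.63 to 0.54 around a log2 fold change of -0.05 (SE 0.27).

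The 3 loading genes had fitted differences slightly above 0, with 95% intervals that spanned 0. TAP1 stood at 85.6, 77.0, 55.5, 52.9 and 106 CPM in PBS tumours and at 64.4, 78.0 and 92.4 CPM (lowest, median, highest) in A2M* tumours, with a log2 fold change of 0.04 (SE 0.17). TAP2 stood at 136, 130, 99.8, 108 and 136 CPM in PBS and at 113, 128.1 and 166 CPM in A2M* tumours. It had the largest fitted difference of the 9, a log2 fold change of 0.12 (SE 0.11, 95% interval -0.11 to 0.36, adjusted p = 0.876 in edgeR). Only 3 of 6 A2M* tumours were above the PBS median of TAP2. TAPBP ran from 174 to 287 CPM in PBS and from 207 to 296 CPM in A2M* tumours, with a log2 fold change of 0.08 (SE 0.12). Exact two-sided permutation tests over all ways to label the tumours, whose smallest possible p is 0.00216, gave p from 0.366 (TAP2) to 0.929 (HLA-F) for the 9 genes. No member had groups that did not overlap, against 0.71% of all genes.

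**Figure D2:**
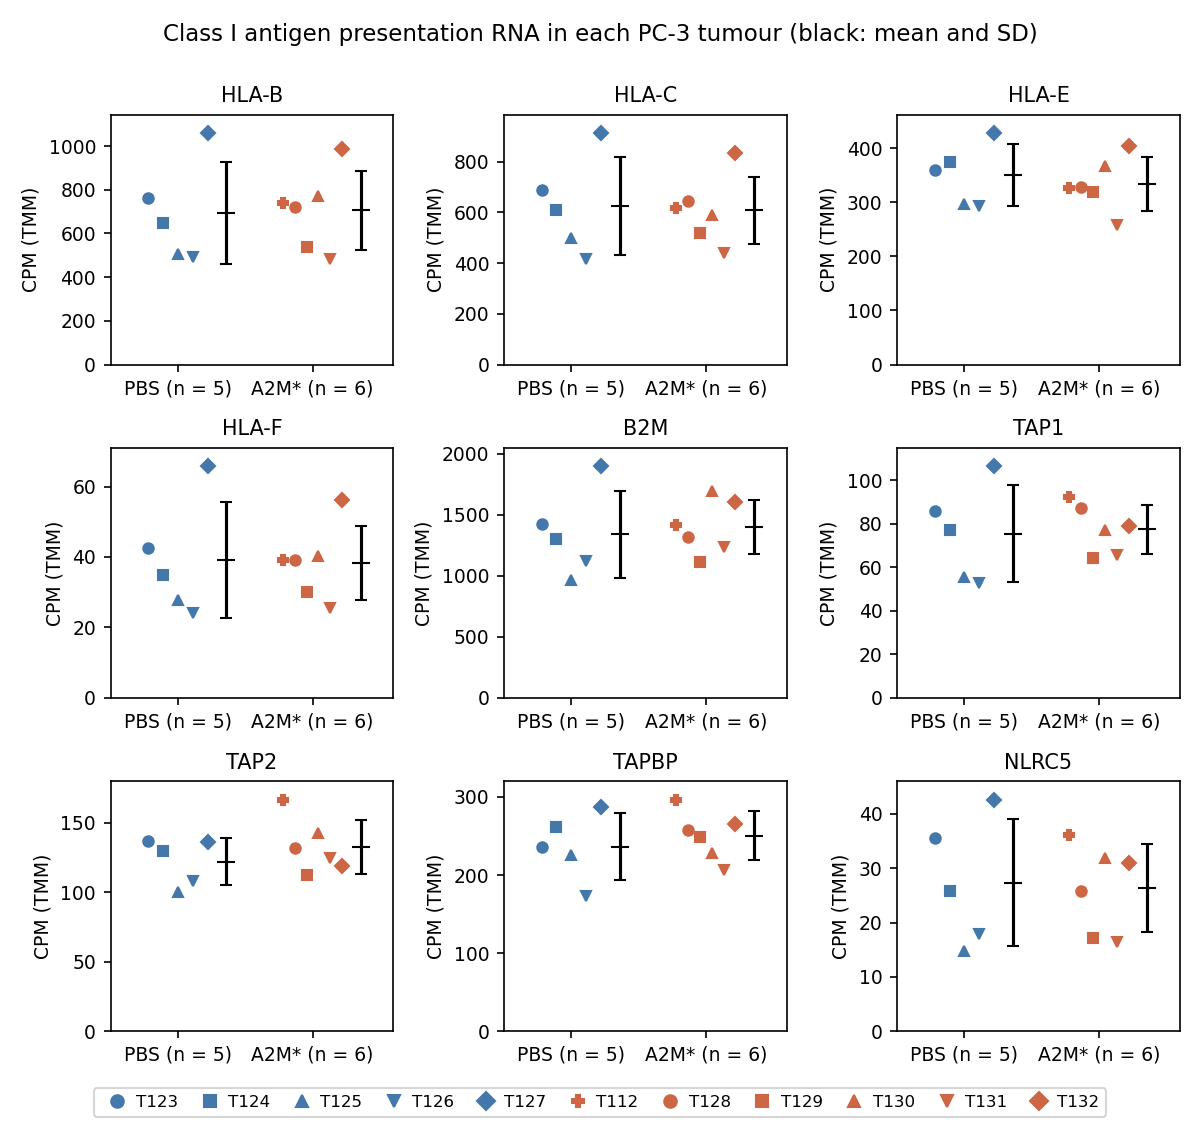
Level of each gene in CPM (scaled by trimmed mean of M values) in the 5 PBS (blue) and 6 A2M* (orange) tumours, each marked by its own symbol, with the mean and SD of each group in black and every axis starting at 0. The groups overlap in all 9 panels, and T127 is the highest PBS tumour in 8 of them.

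Nor did the rest of the pathway pass the test. Of 6 further loading and trimming genes, 5 inducible and 3 constitutive proteasome subunits, 17 regulators, 9 class I-like genes and 4 class II genes tested, 0 had an adjusted p under 0.01 in edgeR. IFNGR2, the second chain of the interferon gamma receptor, was the only listed gene with an unadjusted p under 0.05. It stood at 66.2, 66.5, 72.3, 66.9 and 70.4 CPM in PBS tumours and at 48.5, 59.1 and 62.8 CPM (lowest, median, highest) in A2M* tumours, and the groups did not overlap, as in 0.71% of all genes. Its log2 fold change was -0.24 (SE 0.069) with an unadjusted p of 0.00363 and an adjusted p of 0.599 in edgeR.

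In each other list the genes nearest to a difference had 95% intervals that spanned 0. ERAP2, which trims peptides in the endoplasmic reticulum, had a log2 fold change of 0.20 (SE 0.11), and calreticulin (CALR), a chaperone of the heavy chain, -0.04 (SE 0.093). Among the inducible proteasome subunits the values were 0.07 (SE 0.069) for PSME1 and -0.15 (SE 0.14) for PSMB10, and the constitutive subunit PSMB7 had -0.12 (SE 0.093). The transcription factor IRF2 had 0.14 (SE 0.074, unadjusted p = 0.0877 in edgeR). ULBP1, a ligand of the activating receptor NKG2D, had 0.19 (SE 0.087, unadjusted p = 0.0516), and the neonatal Fc receptor chain FCGRT had -0.16 (SE 0.13). The class II genes were low, with HLA-DPA1 at a mean of 0.744 CPM in PBS and 1.05 CPM in A2M* tumours (log2 fold change 0.51, SE 0.43) and HLA-DMA at 7.32 and 6.18 CPM (-0.25, SE 0.16). CD1D, HLA-DRA, HLA-DPB1 and HLA-DMB were too low to test, with at most 13 counts in any tumour.

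**Figure D3:**
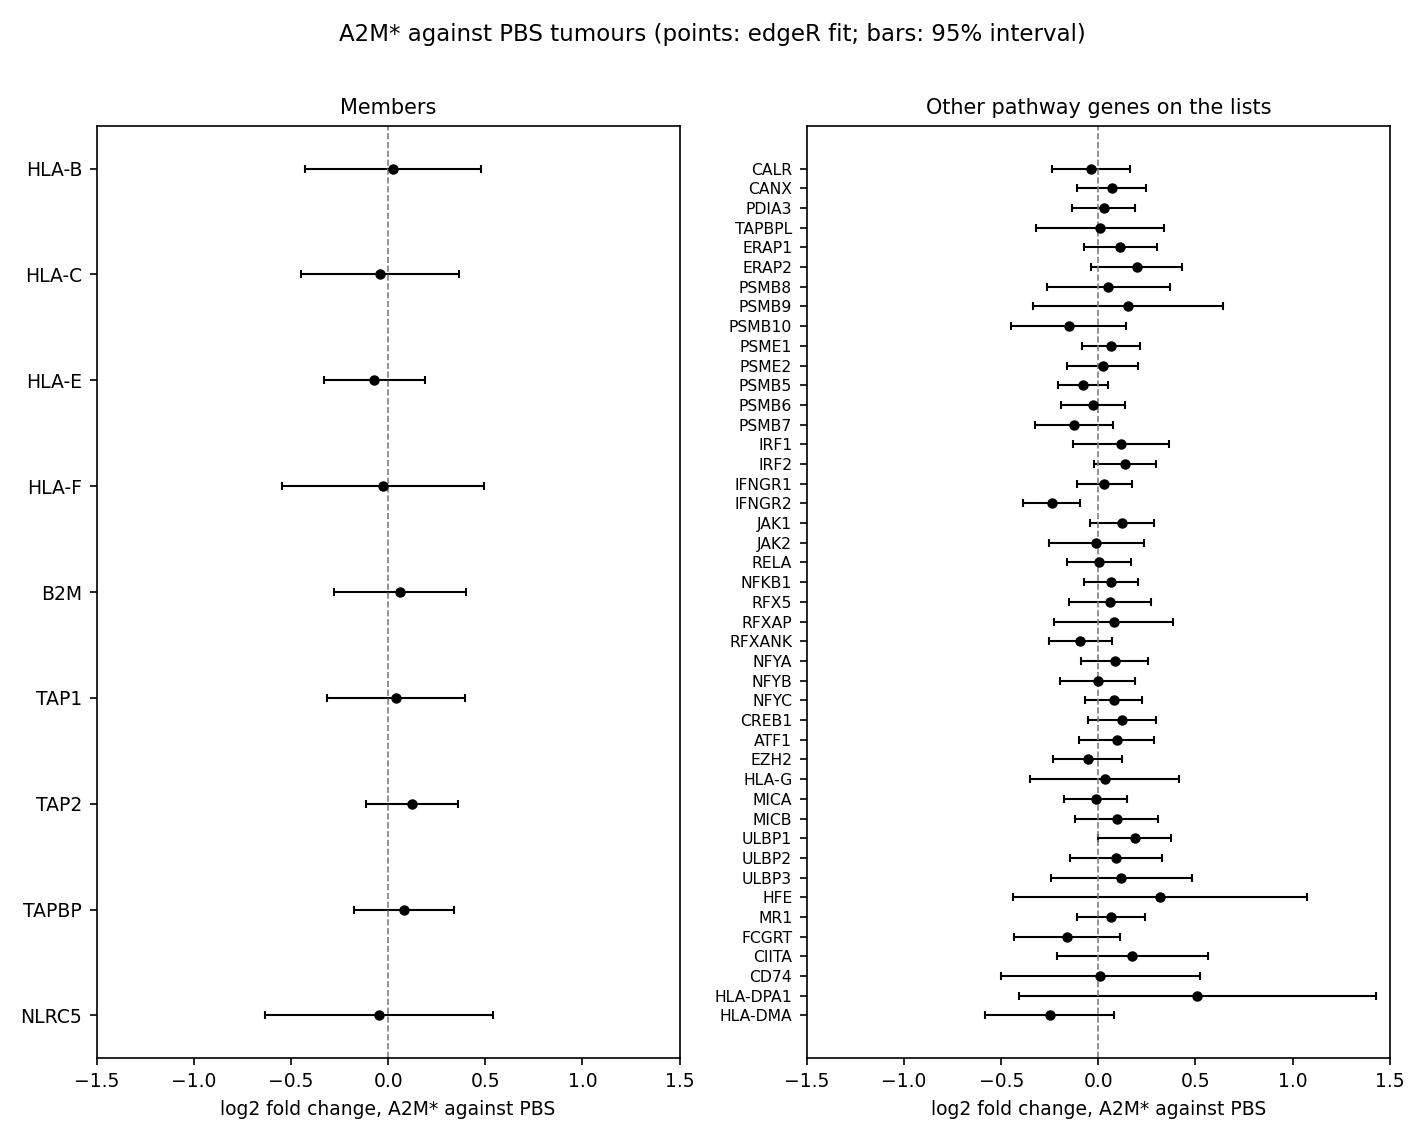
Log2 fold change of A2M* against PBS tumours for the 9 genes (left) and for the tested genes of the other pathway lists (right), as fitted by edgeR, with 95% intervals as bars. Every interval on the left spans 0, and on the right that of IFNGR2 lies below 0 before adjustment over all genes.

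The tumours nevertheless differed among themselves, and several tumours lay above or below their group mean in all 9 genes. The highest of the 11 tumours exceeded the lowest by 2.88 times for NLRC5, 2.72 for HLA-F, 2.20 for HLA-B and HLA-C, 2.01 for TAP1, 1.97 for B2M, 1.71 for TAPBP, 1.67 for TAP2 and 1.66 for HLA-E. The SD of log2 CPM within groups was 0.56 for NLRC5, larger than in 96.4% of the 16630 genes tested, and 0.48 for HLA-F (larger than in 93.5%). TAP2, with 0.21, was near the median of all genes, 0.18.

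T127 was the highest PBS tumour in 8 of 9 genes. T126 was the lowest in 6 and T125 in 3. Among A2M* tumours T112 and T132 were the highest in 4 genes each, and T131 was the lowest in 6 and T129 in 3. T123 and T127 lay above their group mean of log2 CPM in 9 of 9 genes, and T125, T126, T129 and T131 in 0 of 9. NLRC5 in T127 was 0.75 above and in T125 0.77 below the PBS mean on the log2 scale. The high and low tumours were found in both groups. The totals of the low tumours were 34410377 in T125, 26042224 in T126, 16958533 in T129 and 26930311 in T131. T127 had the deepest library, 35874381 counts. The part of sequencing depth in these deviations was not tested.

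Proportions between members are given as a description without a test. HLA-F stood at 0.0494 to 0.0620 of HLA-B in CPM over the 11 tumours and HLA-C at 0.768 to 0.985 of HLA-B. The sum of the 4 heavy chains relative to B2M ran from 0.972 in T131 to 1.42 in T132. HLA-E relative to HLA-B ran from 0.404 in T127, where HLA-B was highest, to 0.597 in T126. TAP1 relative to TAP2 ran from 0.491 in T126 to 0.781 in T127. Together the 9 genes took 0.259% to 0.484% of all counts.

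**Figure D4:**
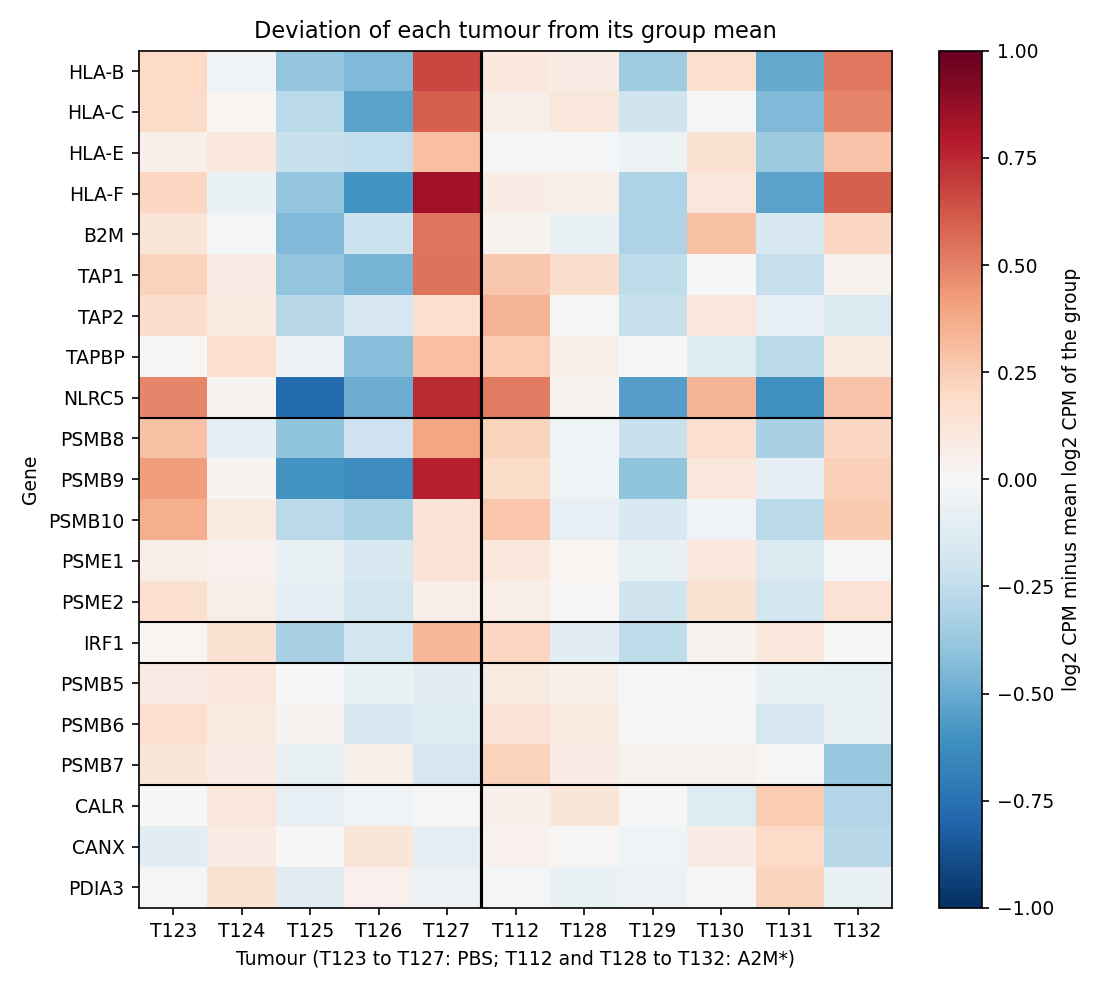
Deviation of each tumour from its group mean in log2 CPM, with tumours as columns (PBS left, A2M* right of the vertical line) and genes as rows, red above and blue below the mean. The 9 class I genes and the inducible proteasome subunits are mostly red in T123 and T127 and mostly blue in T125, T126, T129 and T131, and the constitutive subunits PSMB5, PSMB6 and PSMB7 and the chaperones in the lowest rows show no such pattern.

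Whether other genes vary with NLRC5 within the groups was asked by fitting each gene's slope on the log2 CPM of NLRC5, with treatment in the model. A slope of 1 means that a gene doubles when NLRC5 doubles. All 8 other members had positive slopes, beside 50.3% of all genes, and all 8 had an unadjusted p under 0.05, beside 1.71% of all genes with a positive slope at that threshold. At an adjusted p under 0.01, 0 of 8 members and 0% of all genes passed in edgeR, so none of these slopes passed the threshold after adjustment over 16629 genes. The slopes describe genes that vary together and give no direction of effect.

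TAP1 had a slope of 0.54 (SE 0.080, adjusted p = 0.0525 in edgeR) and ranked 2 of 16629 by p. HLA-B had 0.69 (SE 0.10, adjusted p = 0.0525) and ranked 4, and HLA-F had the steepest slope of the members, 0.76 (SE 0.13, adjusted p = 0.114). B2M, which shares no sequence with the heavy chains, had 0.49 (SE 0.087, adjusted p = 0.125), and HLA-C had 0.57 (SE 0.11, adjusted p = 0.184). TAP2 (0.31), HLA-E (0.33) and TAPBP (0.27) had the shallowest slopes, with adjusted p of 0.345 to 1.00.

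The proteasome subunits divided by kind. PSMB8, a catalytic subunit of the immunoproteasome whose gene lies beside TAP1, ranked 1 with a slope of 0.50 (SE 0.055, adjusted p = 0.0102 in edgeR) and was the only gene of all (0.00601%) with an adjusted p under 0.05. PSMB8 stood at 73.4, 56.3, 45.3, 51.7 and 78.8 CPM in the PBS tumours, high and low in the same tumours as NLRC5. PSMB9 had 0.73 (SE 0.11, adjusted p = 0.0654) and PSMB10 0.40 (SE 0.089). All 5 inducible subunits had a positive slope with an unadjusted p under 0.05. The constitutive counterparts PSMB5 (0.02, SE 0.062), PSMB6 (0.08, SE 0.076) and PSMB7 (near 0, SE 0.10) had none. The difference between the 2 kinds was not tested.

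Of the other lists, 1 of 6 loading and trimming genes (TAPBPL, 0.41), 1 of 17 regulators (IRF1, 0.28), 1 of 9 class I-like genes (HLA-G, 0.52) and 1 of 4 class II genes (CD74, 0.68) had an unadjusted p under 0.05, all with positive slopes, beside 1.71% of all genes. The general chaperones CALR (-0.06), CANX (-0.11) and PDIA3 (-0.05) and the promoter factors RFX5 (0.01), CREB1 (-0.09) and NFYA (-0.14) were not among them. Outside the lists the 5 genes of smallest p were HCP5, a long non-coding RNA of the MHC class I region (0.67), APOL6 (0.43), and the interferon-inducible genes GBP4 (0.63), HERC6 (0.62) and TRIM22 (0.69), with adjusted p of 0.0525 to 0.132 in edgeR.

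The same fit was made on B2M, which was measured in the same libraries as NLRC5. All 8 other members were positive, beside 49.2% of all genes, and 7 of 8 had an unadjusted p under 0.05, beside 1.62% of all genes. NLRC5 had 1.69 (SE 0.26) and HLA-B 1.24 (SE 0.19), both with an adjusted p of 0.0512 in edgeR, HLA-F 1.39 (SE 0.23) and HLA-C 1.00 (SE 0.22). TAPBP, at 0.37 (SE 0.20, unadjusted p = 0.0886 in edgeR), was the exception. HCP5 (1.29, SE 0.15) and APOL6 (0.83, SE 0.10) had an adjusted p of 0.0153 and were the only genes of all (0.012%) under 0.05, and BTN3A2 (0.94), TRIM22 (1.35) and PARP9 (0.80) followed outside the lists. 

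**Figure D5:**
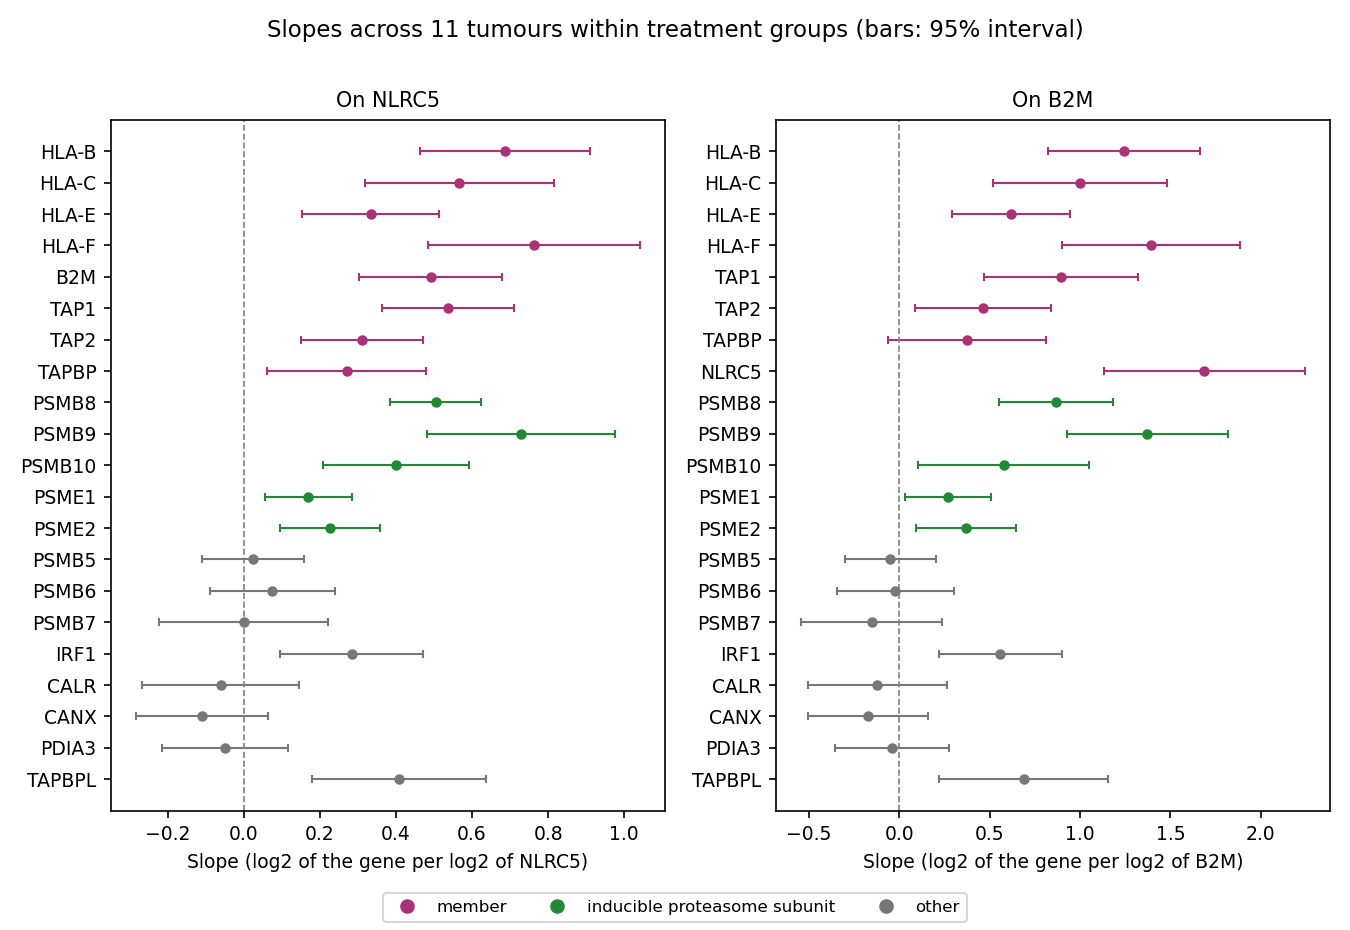
Slope of each gene's log2 level on the log2 CPM of NLRC5 (left) and of B2M (right) across 11 tumours with treatment in the model, with 95% intervals as bars. Members (purple) and inducible proteasome subunits (green) lie above 0 except that the interval of TAPBP on B2M spans 0. Of the other genes (grey), the constitutive subunits and general chaperones lie around 0, and IRF1 and TAPBPL lie above 0 in both panels.

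The slopes kept their sign without each tumour in turn, from 0.61 to 0.76 for HLA-B and from 0.41 to 0.54 for B2M on NLRC5, while adjusted p depended on single tumours. Without T127, the tumour with the highest NLRC5, the adjusted p of HLA-B was 0.514, and without T112 it was 0.0428. Leaving out T125 and T127, the tumours farthest from the median of NLRC5, gave slopes of 0.68 for HLA-B, 0.48 for TAP1 and 0.38 for B2M, with adjusted p of 1.00 in 9 tumours. Of the markers of other cells, only PECAM1, an endothelial gene, had an unadjusted p under 0.05, with a slope of 0.26 (adjusted p = 1.00 in edgeR) on NLRC5 and 0.59 on B2M, while KDR, the other endothelial gene tested, had slopes of -0.51 and -0.86. Their part in these slopes was not tested. The 5 leukocyte genes tested had slopes on NLRC5 from -0.12 (PTPRC, SE 0.23) to 0.24 (ITGAM, SE 0.21), 2 positive and 3 negative. Because reads assigned to mouse had been removed, the slopes of these marker genes cannot show the cells of the host.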

How the data were processed

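Tumour RNA was sequenced as single reads (HiSeq2500, TruSeq RNA kit, bcl2fastq 1.8.4 per the labels). The authors separated human from mouse reads with xenome, aligned to hg19 with TopHat2, counted RefSeq exons with featureCounts, and deposited read counts that were not normalized, RPM (reads per 1000000 counted reads) and RPKM (RPM per kilobase of exon, as given by featureCounts). Read length, strand setting and the handling of reads matching several genes are not given in the sources used here. The deposited RPM equalled count per 1000000 within 4.99e-07.

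From the counts, edgeR 4.0.16 in R 4.3.3 was run with filterByExpr, TMM scaling and the quasi-likelihood test, A2M* against PBS, Benjamini-Hochberg over 16630 genes, threshold 0.01 on the adjusted p. The biological coefficient of variation was 13.9%. Log2 CPM used a prior count of 2. The slope tests added the log2 CPM of NLRC5 or of B2M to the group term. Both were tested on simulated data. All 55 pairs of libraries differed beyond sampling noise (chi-square per degree of freedom 8.72 to 62.5), so each was counted as its own sample. Totals of 16958533 to 35874381 set the precision, and 3 counts are 0.0836 to 0.177 RPM. Intervals cover the spread between tumours.

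Implied exon length is RPM divided by RPKM. Reference lengths and positions come from GENCODE v44 on GRCh37, and promoters (7 of 9 members matched) from RefSeq.

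Alternatives were other scalings, filters, tools (DESeq2 1.42.0, limma 3.58.1, for which 0.1 was added to RPKM), and leaving out single tumours. Text names all 9 members, from each related list the gene of smallest unadjusted p in each direction and any that passed, and the 5 unlisted genes of smallest p per slope test. Further listed genes named for their slopes were chosen after their values were seen. Members and lists were chosen with earlier results of these data known. A regulator of the lists is not reported here.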

Additional observations from a re-analysis of the deposited data

How the results depend on the processing

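The count of class I members past the adjusted threshold stayed at 0 under every alternative. Over all genes it was 1 (REP15, higher) with DESeq2, with the edgeR likelihood ratio test and with the edgeR classic exact test. With an unadjusted p no higher than 0.01 asked of edgeR and DESeq2 together it was 241 (122 higher, 119 lower), with 1 related gene, IFNGR2, lower, and no member. The genes related to NLRC5 numbered 1 with at least 10 counts in every tumour, with no group term and at an adjusted p under 0.05, and those related to B2M numbered 2 at an adjusted p under 0.05. Scaling by library size alone turned the small log2 fold changes of HLA-C (0.0021) and HLA-F (0.0158), limma-voom those of HLA-F (0.0136) and NLRC5 (0.0092), and limma-trend on log2(RPKM + 0.1) those of HLA-C (0.0265), HLA-F (0.0618) and NLRC5 (0.0403). The cause was not tested. The median log2 fold change of all genes was 0.0419 by library size alone. 

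Without each tumour in turn the log2 fold changes ran from -0.038 to 0.22 for B2M, -0.095 to 0.23 for HLA-B, -0.16 to 0.13 for HLA-C, -0.13 to 0.012 for HLA-E, -0.17 to 0.24 for HLA-F, -0.20 to 0.17 for NLRC5, -0.063 to 0.20 for TAP1, -0.0096 to 0.16 for TAPBP and 0.05 to 0.17 for TAP2, the only member that kept its sign. The lists gave counts of 0 in each of these fits. All 288 slopes of members under the other settings, of which 176 left out 1 tumour, were positive, and none had an adjusted p under 0.01. With the log2 of the total count as a further covariate, chosen after seeing the data as was leaving out the 2 tumours farthest from the median, the slope of HLA-B on NLRC5 was 0.70 (adjusted p = 0.300 in edgeR). No paired analysis was possible because the tumours of the groups share no numbers.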
